A study of Mus musculus with 6 samples.

Results

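Counts over 81 ribosomal protein gene rows were examined in small RNA from extracellular vesicles (EVs) released by cultured mouse astrocytes, set against EVs released by cultured neural stem cells (NSCs). A row is one annotated feature of the count table, and the 81 rows are all RefSeq sense rows named Rpl or Rps followed by a digit, or Rplp0, Rplp1, Rplp2 or Rpsa, without the S6 kinases and the Rps19 binding protein. They are 81 of 20714 RefSeq sense rows and of 61949 rows in all. The members include the paralogs Rpl3l, Rpl7l1, Rpl10l, Rpl22l1, Rpl36al, Rpl39l and Rps27l and the pseudogene Rpl31-ps12. The row spans the whole gene from its first to its last base, introns included, and a second row holds the antisense strand of the same span for all 81 members.

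Astrocyte EVs came from primary cortical astrocytes of CD1 pups at postnatal day 4, grown from dorsal cortex, shaken to remove microglia and then oligodendrocytes, and kept in medium with 2% fetal bovine serum before the EVs were pelleted by ultracentrifugation. NSC EVs came from primary NSCs of the subventricular zone of CD1 mice, which the labels call neonatal. The labels list no engineered allele and no treatment for either, and the NSC medium and how NSC EVs were isolated are not given in the sources used here. Each EV type had 3 libraries, from RNA purified with Trizol and a SeraMir column. Nothing states that the 3 came from separate cultures, so a p-value here speaks of the spread over these libraries, which may be technical. Fewer vesicles with a transcript and less of it in each vesicle cannot be told apart in such pooled RNA.

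Ribosomal proteins build the small (Rps) and large (Rpl) ribosomal subunits around the ribosomal RNA, and their mRNAs are among the most abundant of any growing cell. Many of their introns also carry small nucleolar RNAs (snoRNAs), which are released when the spliced intron is trimmed. C/D box snoRNAs (SNORD) guide 2′-O-methylation and H/ACA box snoRNAs (SNORA) guide pseudouridylation, mostly of ribosomal RNA. A gene row of a ribosomal protein can therefore collect pieces of the mRNA, of the intron or of the snoRNA.

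Table totals were 72359982 to 111851274 counts per astrocyte EV library, against 44620985 to 50898531 per NSC EV library, and since features overlap they are not read numbers. TMM scaling factors were 0.488, 0.869 and 1.27 in astrocyte EV replicates 1, 2 and 3, against 1.20, 1.42 and 1.09 in NSC EV replicates 1, 2 and 3, so a given count is worth most CPM (counts per 1000000) in astrocyte EV replicate 1. Of 10 astrocyte marker rows, Gfap and Aldoc were higher in astrocyte EVs (log2 fold changes 1.85 and 1.32, adjusted p = 0.0263 and 0.0448, edgeR's quasi-likelihood test with Benjamini-Hochberg adjustment). Without a call, Gja1, Sox9, Glul, Aqp4 and S100b had 1.31, 0.61, 0.56, 0.15 and 0.14, and Aldh1l1, Slc1a2 and Slc1a3 had -0.18, -0.80 and -1.15. The summed level of the list spanned 29.8 to 35.8 CPM over astrocyte EV libraries, against 30.7 to 52.2 CPM over NSC EV libraries. Of 9 NSC and progenitor markers tested, 0 were called (3 at an unadjusted p under 0.05). Their log2 fold changes ran from -0.78 (Dcx) to 1.59 (Dlx2), and DESeq2 called 1 of the list, higher in astrocyte EVs. Of 4 fibroblast markers tested, Col1a2 was higher in astrocyte EVs (2.54, adjusted p = 0.0237), and Col1a1, Dcn and Col3a1 had 0.88, -0.01 and -0.83 without a call. Of 5 neuron markers tested, Rbfox3 was lower (-1.50, adjusted p = 0.0409), and the others had -0.22 to 0.48 without a call. Among markers of other cells, 0 of 6 microglial, 0 of 7 oligodendrocyte lineage, 0 of 4 endothelial and 0 of 1 red blood cell marker rows were called (0, 1, 2 and 1 at an unadjusted p under 0.05, and 0, 1, 0 and 1 by DESeq2). The summed levels were 10.1 to 21.3 CPM for the fibroblast list in astrocyte EVs, against 8.24 to 8.91 CPM in NSC EVs, and 91.3 to 171 CPM for the neuron list in astrocyte EVs, against 221 to 322 CPM in NSC EVs, with Rbfox3 alone at 2650 to 8098 counts in astrocyte EVs, against 9387 to 14422 counts in NSC EVs, and no listed marker was at 0 in all libraries. Without TMM 0 astrocyte and 0 fibroblast markers were called. Sense counts exceeded antisense counts in all 6 libraries for 4 of 10 astrocyte, 0 of 10 NSC and progenitor, 1 of 5 neuron and 1 of 5 fibroblast marker rows. The same held for 1 of 6 microglial, 1 of 8 oligodendrocyte lineage, 1 of 4 endothelial and 0 of 3 red blood cell rows, against 22.8% of RefSeq sense rows. Antisense of Rbfox3 held 164446 counts over the 6 libraries. The part of other cells in the ribosomal protein rows was not tested.

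Of the 81 rows, 29 held at least 1 snoRNA row inside their span on the same strand, 55 snoRNA rows in all, with 16 hosts of 1 and 13 hosts of several. The largest number was 5, in Rpl4. By class 33 were C/D box rows, 18 were H/ACA box rows and 4 were listed under Rfam snoRNA names. All 55 coincided with a snoRNA gene of the GENCODE annotation of the same mm10 build. All but Snora7a of Rpl32, which overlaps an exon of a coding transcript, lay in introns of their host. Of the 81 members 7 overlap another RefSeq row by position, without regard to strand. The other 52 members held no snoRNA row, although GENCODE places another small RNA gene in the span of 7 members (Gm27597 in Rpl19 and Mir3091 in Rps21 among the 52).

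The snoRNA counts were contained in the count of the host row. In each of the 190 RefSeq rows with a snoRNA row inside, subtracting the snoRNA counts left at least 0 counts in every library. The snoRNAs that the comparison turns on are printed from the GENCODE transcripts, 5′ to 3′, with the first TGATG and the last CTGA in capitals, the letters shared by the C box and D box that give the class its name. Gm23130 lies at chr10:23786470-23786543 and Snord100 at chr10:23785750-23785823, both on the minus strand in introns of Rps12. Gm22879 at chr2:26912218-26912291 and Gm24134 at chr2:26912530-26912600 lie on the plus strand in Rpl7a. Snord68 at chr8:123103038-123103123 lies in Rpl13, Snord72 at chr15:5118404-5118484 in Rpl37 and Gm25091 at chr5:146834834-146834904 in Rpl21, all on the plus strand.
Gm23130 (SNORD101, Rps12): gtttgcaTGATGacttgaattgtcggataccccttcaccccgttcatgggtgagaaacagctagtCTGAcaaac
Snord100 (SNORD100, Rps12): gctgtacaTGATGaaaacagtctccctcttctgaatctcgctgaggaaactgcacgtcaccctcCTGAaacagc
Gm22879 (SNORD36, Rpl7a): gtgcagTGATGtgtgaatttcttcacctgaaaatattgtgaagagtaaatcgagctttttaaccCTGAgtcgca
Gm24134 (SNORD36, Rpl7a): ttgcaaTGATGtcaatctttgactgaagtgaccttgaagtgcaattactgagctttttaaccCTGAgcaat
Snord68 (snoMBII-202, Rpl13): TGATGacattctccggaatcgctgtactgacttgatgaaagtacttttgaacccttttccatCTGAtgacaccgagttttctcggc
Snord72 (SNORD72, Rpl37): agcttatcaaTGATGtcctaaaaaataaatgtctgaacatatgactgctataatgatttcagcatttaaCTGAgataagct
Gm25091 (SNORD102, Rpl21): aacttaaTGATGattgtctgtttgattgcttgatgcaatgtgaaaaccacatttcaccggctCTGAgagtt

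TGATG followed by CTGA was found in 97.3% of the 37 C/D box and Rfam snoRNA rows inside members, in 0% of their 18 H/ACA box rows and in 74.1% of the 501 GENCODE snoRNA transcripts of 60 to 110 bases. On the reverse strand TGATG was found in 0% of the 37 and in 6.99% of the 501. The SNORD36 copies of Rpl7a share a run of 18 bases, gagctttttaaccctgag, that ends just past the D box letters. Sequences of the SNORD58 copies of Rpl17 are not printed.

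Some snoRNAs inside members also hold a shorter annotated row, whose counts are given here as a share of those of the snoRNA row. How reads were assigned to rows is not given, so reads that reach past the shorter row may be counted in it too. In the lines that follow the capitals mark the bases of that shorter row inside the snoRNA. The row of piR_003399 has 29 bases and starts at chr5:107904554, just outside Snord21. MiR-5121 in Snord33 of Rpl13a (chr7:45126864-45126947, minus strand) took 91.5% of the counts of its snoRNA row over the 6 libraries. The piRNA-annotated row piR_019359 in Gm23969 of Rpl7a (chr2:26911261-26911334, plus strand) took 76.2% and piR_003399 in Snord21 of Rpl5 (chr5:107904555-107904648, plus strand) took 65.6%.
Snord33 with miR-5121: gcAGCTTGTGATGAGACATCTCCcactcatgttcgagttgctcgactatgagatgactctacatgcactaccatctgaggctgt
Gm23969 (SNORD24) with piR_019359: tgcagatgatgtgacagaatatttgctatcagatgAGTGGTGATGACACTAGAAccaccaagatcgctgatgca
Snord21 with piR_003399: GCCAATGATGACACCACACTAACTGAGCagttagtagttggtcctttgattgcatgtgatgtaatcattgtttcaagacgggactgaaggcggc

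The shorter rows in Snord33 and Snord21 lie at the 5′ end of the snoRNA, at positions 3 to 23 and 1 to 28, and that in Gm23969 at positions 36 to 54. Positions are counted from 1 at the 5′ end. In Snord21 the share of the shorter row was 84.9%, 63.5% and 81.4% in astrocyte EVs, against 34.6%, 21.1% and 35.6% in NSC EVs, without overlap and with no test of the share. In Snord33 and Gm23969 the shorter row took 66.1% to 100% of the snoRNA counts in every library, and the EV types overlapped in both. They also overlapped for piR_000705 in Snord15a of Rps3, with 92.9%, 63.6% and 100% in astrocyte EVs, against 89.8%, 36.4% and 84.1% in NSC EVs. Read ends are not in the table.

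Summed over the 81 rows, astrocyte EV replicates 1, 2 and 3 had 10476, 9855 and 20889 counts, against 13706, 7233 and 15157 counts in NSC EV replicates 1, 2 and 3. This is 250.6, 157.4 and 148.0 CPM in astrocyte EVs (185 ± 56.7, SD, n = 3), against 240.0, 114.8 and 274.5 CPM in NSC EVs (210 ± 84.0, SD, n = 3), and the ranges overlapped. SnoRNA rows held 67.7%, 59.7% and 63.5% of these counts in astrocyte EV replicates 1, 2 and 3, against 58.3%, 40.2% and 30.1% in NSC EV replicates 1, 2 and 3. The share was higher in every astrocyte EV library than in any NSC EV library. Within the 29 hosts alone, snoRNA rows held 84.4% ± 2.28 of the counts in astrocyte EVs, against 82.4% ± 6.06 in NSC EVs (SD, n = 3 each), and the ranges overlapped. In 14 hosts they held over 50% of the counts of the 6 libraries.

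The largest row without a snoRNA was Rpl27, a protein of the large subunit with no small RNA gene of GENCODE in its span. It took 8.23% ± 2.97 of member counts in astrocyte EVs and 32.0% ± 19.2 in NSC EVs (SD, n = 3 each). What remained after snoRNA rows and Rpl27 were taken out was 61.8, 45.3 and 45.7 CPM in astrocyte EV replicates 1, 2 and 3, against 46.8, 46.0 and 43.2 CPM in NSC EV replicates 1, 2 and 3. These ranges overlapped.

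**Figure D1:**
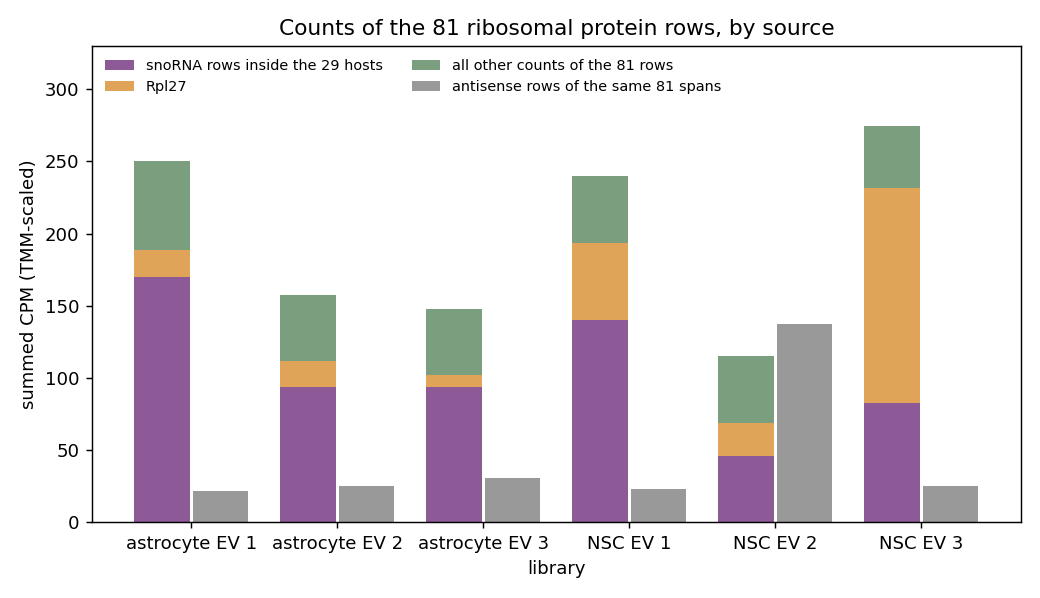
Summed CPM (TMM-scaled) of the 81 ribosomal protein rows in each library, stacked as snoRNA rows inside the 29 hosts, Rpl27 and all other counts, with the antisense rows of the same spans beside them in grey. snoRNA rows form 59.7% to 67.7% of the stack in astrocyte EVs, against 30.1% to 58.3% in NSC EVs, Rpl27 is largest in NSC EV replicate 3, and the antisense bar is tall in NSC EV replicate 2 alone.

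Among the rows of highest mean CPM were Rpl3, Rpl27, Rpl4, Rpl13 and Rpl17 in astrocyte EVs and Rpl27, Rpl3, Rpl21, Rps3a1 and Rpl13a in NSC EVs. Of these all but Rpl27 were snoRNA hosts. Per kilobase of row span, Rpl3 had 6.91, Rpl27 4.52 and Rps12 4.84 CPM per kb in astrocyte EVs, against 7.55, 22.3 and 0.917 CPM per kb in NSC EVs. Rpl3, a large subunit protein near the peptidyl transferase center, had 2263, 1967 and 4382 counts in astrocyte EV replicates 1, 2 and 3 and 4325, 960 and 2010 counts in NSC EV replicates 1, 2 and 3, and 98.6% of them lay in Snord43 and Snord83b. The groups overlapped (log2 fold change -0.13, SE 0.56, adjusted p = 0.905 by edgeR's quasi-likelihood test), and the count of Rpl3 outside its snoRNAs was 12 to 99 per library.

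Of the 79 members that passed the low-count filter (Rps21 and Rpl22l1 did not), 4 were higher and 1 was lower in astrocyte EVs at an adjusted p under 0.05, which is 6.33%. Among all RefSeq sense rows tested 9.41% were called, 6.02% higher and 3.39% lower, and among all rows 9.78%, so the members did not exceed the background. At an unadjusted p under 0.05 there were 19 members. The median log2 fold change was 0.07 over the members and -0.04 over all rows tested. The EV types did not overlap in CPM for 22 of the 79 members, 27.8%, against 34.0% of RefSeq sense rows. Without TMM, which moved the median of all rows to -0.54, 2 members were higher and 7 lower.

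All 5 called members were among the 29 snoRNA hosts (17.2%), against 11.9% called of all RefSeq sense rows that hold a snoRNA row and 10.9% of those that are no members. Rpl13, a large subunit protein, had 601, 568 and 1164 counts in astrocyte EV replicates 1, 2 and 3 and 104, 29 and 87 counts in NSC EV replicates 1, 2 and 3. It was 3.04 higher on the log2 scale (SE 0.54, adjusted p = 0.0203, edgeR's quasi-likelihood test with Benjamini-Hochberg adjustment, as for every adjusted p here), the highest positive value of a member. Rpl17, which lines the exit tunnel of the large subunit, had 608, 454 and 1279 counts in astrocyte EVs and 95, 48 and 89 counts in NSC EVs (2.93, SE 0.45, adjusted p = 0.0162). Rps12 of the small subunit had 609, 658 and 611 counts in astrocyte EVs and 122, 105 and 98 counts in NSC EVs (2.39, SE 0.47, adjusted p = 0.0239). Rpl37 of the large subunit had 44, 79 and 80 counts in astrocyte EVs and 10, 14 and 15 counts in NSC EVs (2.09, SE 0.46, adjusted p = 0.0319). For these 4 genes every astrocyte EV library stood above every NSC EV library, in counts and in CPM. Rps13 of the small subunit was the gene called lower, with 11, 12 and 29 counts in astrocyte EVs and 27, 49 and 55 counts in NSC EVs, and its groups overlapped in counts but not in CPM (-1.77, SE 0.44, adjusted p = 0.0440). Its antisense row had 7, 38 and 54 counts in astrocyte EVs, above the sense row in replicates 2 and 3. In NSC EVs that antisense row had 15, 18 and 17 counts, below the sense row in each library.

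Whether the 5 calls stood depended on the libraries in the fit, as did the number of calls in the whole table. Each of the 4 higher calls was lost when astrocyte EV replicate 1, astrocyte EV replicate 2 or NSC EV replicate 3 was left out (adjusted p = 0.0543 to 0.108), settings in which 0, 0 and 18 rows of the whole table were called. Rpl37 was also lost without NSC EV replicate 1 or 2 (adjusted p = 0.0726 and 0.0737), and Rps13 without any library except NSC EV replicate 1 (adjusted p = 0.0799 to 0.139 without each of the others). Over these fits the log2 fold changes stayed at 2.64 to 3.38 for Rpl13, 2.58 to 3.12 for Rpl17, 1.97 to 2.76 for Rps12, 1.82 to 2.38 for Rpl37 and -2.01 to -1.53 for Rps13. DESeq2, the other tool run, called 6 members higher, adding Rpl4 (2.04, adjusted p = 0.00381) and Rpl5 (1.82, adjusted p = 0.0142), and 5 lower, with Rpl27, Rps3a1 and Rpl21 among those added. In the whole table DESeq2 called 7388 of the 61161 rows fitted. Without astrocyte EV replicate 3, edgeR also called Rpl5 (2.26, adjusted p = 0.0175), Rpl7a (1.45, adjusted p = 0.0454) and Rps16 (1.83, adjusted p = 0.0228) higher and Rpl11 lower (-1.79, adjusted p = 0.0404). That fit called 4009 of the 41650 rows tested.

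When the counts of snoRNA rows were subtracted from the host rows and the whole table was fitted again, edgeR called 0 of 79 members, while 9.36% of RefSeq sense rows were called in the same fit. At an unadjusted p under 0.05 there were 11 members, and DESeq2 called Rpl5 higher and Rpl27 and Rps13 lower, among 7377 of 61161 rows called. Without astrocyte EV replicate 3, edgeR called 2 higher and 1 lower after subtraction, and without NSC EV replicate 1 or 2 it called 1 lower. Rpl13 went to a log2 fold change of 0.56 (37, 41 and 85 counts left in astrocyte EVs, against 25, 21 and 37 in NSC EVs), Rpl17 to 0.29, Rps12 to 0.66 and Rpl37 to 0.86, with adjusted p = 0.404, 0.696, 0.539 and 0.235. Over the 29 hosts the log2 fold change was smaller in size after subtraction in 16 and larger in 13. Among the larger ones, Rpl7a had 1.89 after subtraction and 1.05 with all counts, Rps3 1.08 and 0.05, and Rpl5 2.19 and 1.82. In Rps13, Snord14a held 81.8%, 33.3% and 31.0% of the counts in astrocyte EVs, against 70.4%, 24.5% and 7.27% in NSC EVs, and the remaining 2, 8 and 20 counts in astrocyte EVs, against 8, 37 and 51 in NSC EVs, gave -2.28 (SE 0.74) with adjusted p = 0.0849.

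Rpl21 and Rps3a1 changed sign on subtraction. Rpl21 had a log2 fold change of -1.59 (adjusted p = 0.0553) with all counts and 0.58 (adjusted p = 0.418) without Gm25091. Rps3a1 had -1.63 (adjusted p = 0.0577) with all counts and 0.62 (adjusted p = 0.333) without its 2 SNORD73 copies. Rpl4, with 799, 623 and 1092 counts in astrocyte EVs and 210, 74 and 227 counts in NSC EVs, had 2.04 (adjusted p = 0.0530) with all counts and 0.0027 (adjusted p = 0.998) without its 5 snoRNA rows. None of these values passed the threshold in edgeR with all libraries, and without NSC EV replicate 2 Rpl21 had -1.83 with adjusted p = 0.0489 on all its counts.

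**Figure D2:**
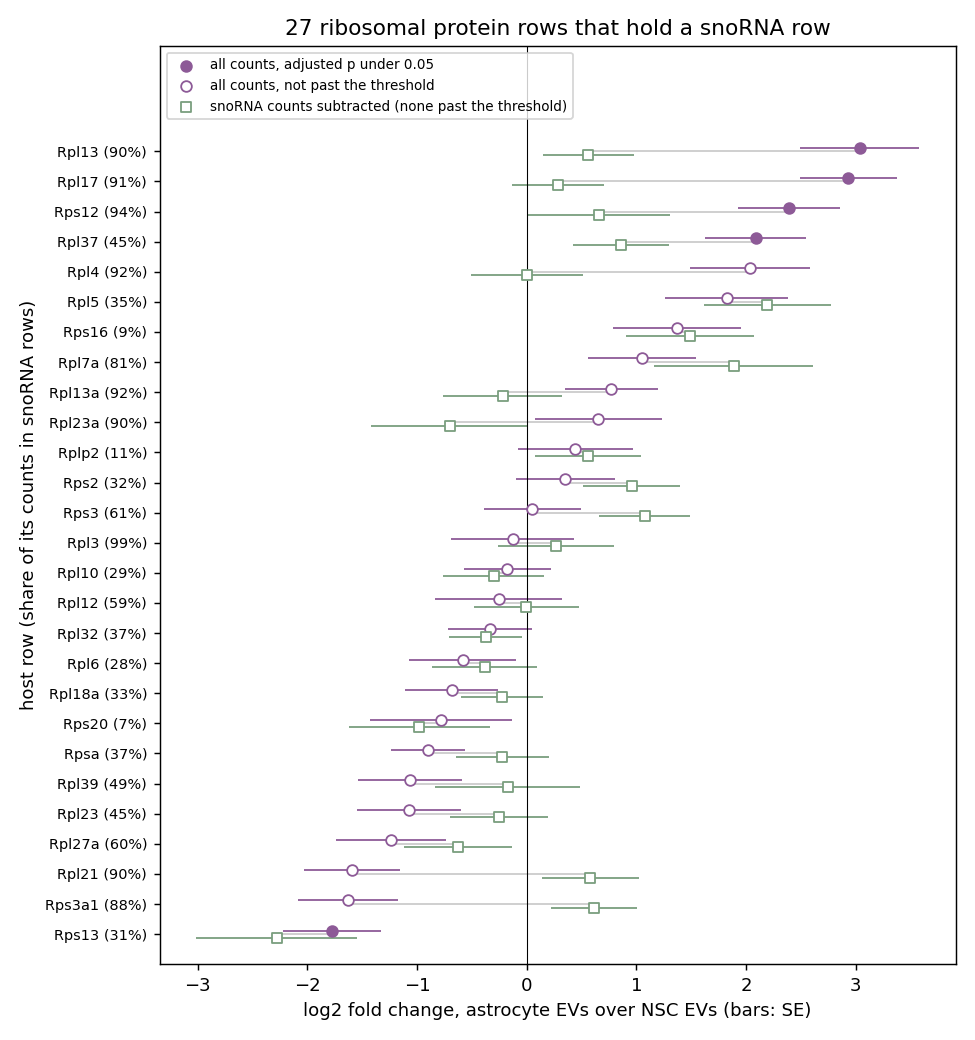
Log2 fold change (astrocyte EVs over NSC EVs, bars are SE) of 27 of the 29 host rows with all counts (circles, filled where the adjusted p is under 0.05) and after subtraction of their snoRNA counts (squares), with the percentage of each row's counts that lay in snoRNA rows. Rpl13, Rpl17, Rps12 and Rpl37 lie between 2.09 and 3.04 with all counts and between 0.29 and 0.86 after subtraction, while Rps13 stays below 0.

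The nested snoRNA rows were then followed one by one. Of the 40 that passed the filter, 8 were higher and 1 was lower in astrocyte EVs, with DESeq2 15 were higher and 7 lower, and without TMM 6 were higher and 10 lower. Of the 8 higher rows 7 are C/D box rows, and the other one is Snord68, an Rfam row. Of all 242 C/D box rows tested 45.0% were called, 25 higher (10.3%) and 84 lower (34.7%), whereas 7 of the 27 C/D box rows inside members were higher and 1 was lower. With DESeq2, 18.0% of all C/D box rows were higher and 45.2% lower, and 13 of those inside members were higher and 6 lower. Without TMM, 7.02% of all C/D box rows were higher and 58.3% lower, and 5 of those inside members were higher and 7 lower. Of the 10 H/ACA box rows inside members that were tested 0 were called (1 at an unadjusted p under 0.05, 1 lower by DESeq2), against 16.7% of all H/ACA box rows. The 27 are part of the 242, and the difference between them and other C/D box rows was not tested.

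Gm23130 of Rps12 was the most abundant of the called rows in astrocyte EVs by mean CPM after Snord68 of Rpl13. It had 563, 598 and 565 counts in astrocyte EV replicates 1, 2 and 3 and 41, 26 and 9 counts in NSC EV replicates 1, 2 and 3, or 9.01 ± 4.75 and 0.431 ± 0.278 CPM (SD, n = 3 each), and was 4.37 higher on the log2 scale (SE 0.67, adjusted p = 0.0162). Snord68 had 564, 527 and 1079 counts in astrocyte EVs and 79, 8 and 50 counts in NSC EVs, with 3.61 (SE 0.74, adjusted p = 0.0268). The astrocyte EV libraries stood above the NSC EV libraries without overlap in both. In Rpl17 the SNORD58 copy Gm26202 had 459, 276 and 986 counts in astrocyte EVs and 26, 15 and 39 counts in NSC EVs (4.0, adjusted p = 0.0156), and the copy Gm23301 had 85, 107 and 205 counts in astrocyte EVs and 31, 14 and 24 counts in NSC EVs (2.11, adjusted p = 0.0251). The third copy, Snord58b, did not pass the filter, and its 83 counts in astrocyte EVs against 3 in NSC EVs gave a ratio of 19.8 scaled to library size (95% counting interval 6.53 to 97.7).

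Both SNORD36 copies of Rpl7a were higher in astrocyte EVs. Gm22879 had 154, 152 and 158 counts in astrocyte EVs and 17, 6 and 7 counts in NSC EVs (3.78, adjusted p = 0.0176), and Gm24134 had 147, 151 and 137 counts in astrocyte EVs and 11, 14 and 10 counts in NSC EVs (3.51, adjusted p = 0.0162). Snord72 of Rpl37 was called higher (adjusted p = 0.0191), with 26, 55 and 27 counts against 1, 0 and 0 counts in NSC EVs, a ratio of 77.1 scaled to library size (95% counting interval 13.5 to 3073). Snord35a of Rpl13a had 36, 24 and 24 counts in astrocyte EVs and 2, 3 and 5 counts in NSC EVs (2.95, SE 0.77, adjusted p = 0.0489).

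The row called lower was Gm25091, the SNORD102 of Rpl21, with 101, 124 and 271 counts in astrocyte EVs and 743, 304 and 294 counts in NSC EVs (-1.88, SE 0.44, adjusted p = 0.0381). Its groups did not overlap. When one of astrocyte EV replicates 1 and 2 or NSC EV replicate 3 was left out, all 9 of these rows had an adjusted p of 0.0525 to 0.147. Snord35a was also lost without NSC EV replicate 1 or 2 and Gm25091 without astrocyte EV replicate 3 or NSC EV replicate 1 (adjusted p = 0.0654 to 0.121).

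SnoRNA rows of 1 host differed from each other in direction. The ratio of the counts of 2 rows within a library needs no scaling between libraries. In Rps12, SNORD101 was 31.3, 46.0 and 94.2 times as abundant as Snord100 in astrocyte EV replicates 1, 2 and 3, but 0.603, 0.553 and 0.145 times in NSC EV replicates 1, 2 and 3. Snord100 itself had 18, 13 and 6 counts in astrocyte EVs and 68, 47 and 62 counts in NSC EVs (-2.29, SE 0.72, adjusted p = 0.0800), so that it did not overlap between EV types but did not pass the test. In Rpl7a, SNORD24 (Gm23969) was 0.481, 0.421 and 0.329 times as abundant as SNORD36 (Gm22879) in astrocyte EVs and 10.9, 24.0 and 21.9 times in NSC EVs. Gm23969 had 74, 64 and 52 counts in astrocyte EVs and 186, 144 and 153 counts in NSC EVs (-1.42, adjusted p = 0.123).

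Rpl13a, which in human myeloid cells also leaves the ribosome to repress translation of inflammatory mRNAs, held further snoRNA rows whose ratio separated the EV types. In Rpl13a, Snord33 was 0.714, 1.67 and 1.46 times as abundant as Snord34 in astrocyte EVs and 6.41, 6.29 and 7.67 times in NSC EVs. The row of Rpl13a had 585, 420 and 726 counts in astrocyte EVs and 347, 267 and 264 counts in NSC EVs (0.77, SE 0.42, adjusted p = 0.261), and its most abundant snoRNA row, Snord32a, had 397, 242 and 549 counts in astrocyte EVs and 167, 128 and 190 counts in NSC EVs (1.04, adjusted p = 0.164).

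Over the 9 hosts with at least 2 tested snoRNA rows there were 23 such pairs, and for 15 of them, in 7 hosts, the ratio did not overlap between EV types (65.2%). In RefSeq hosts that are no members, 41.7% of 36 such pairs did not overlap, and the difference between the shares was not tested. Each of these 15 had p = 0.1 in an exact two-sided permutation test over the libraries, the smallest p that 3 libraries against 3 allow, and 0.153 after Benjamini-Hochberg adjustment over the 23 pairs. Pairs of 1 host share rows and are not independent. Rpl23a, a large subunit protein at the exit tunnel, held 3 of the pairs, and its Snord4a had 106, 75 and 129 counts in astrocyte EVs and 21, 0 and 17 counts in NSC EVs (2.77, SE 0.93, adjusted p = 0.0935).

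**Figure D3:**
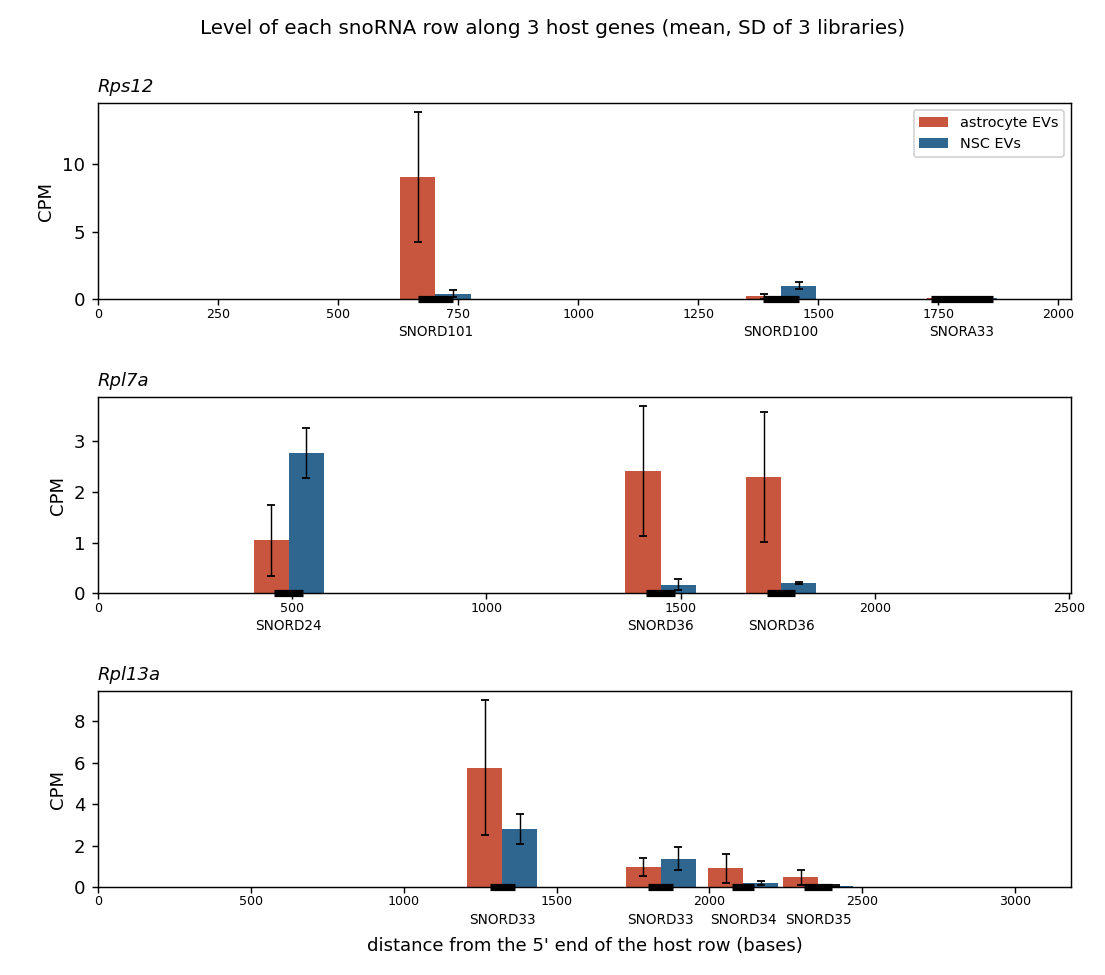
Mean CPM with SD (n = 3 libraries) of each snoRNA row, drawn at its distance from the 5′ end of the host row, for Rps12, Rpl7a and Rpl13a, with astrocyte EVs left and NSC EVs right at each position. SNORD101 of Rps12 and both SNORD36 copies of Rpl7a are higher in astrocyte EVs, while the bars of SNORD100 in Rps12 and SNORD24 in Rpl7a are taller in NSC EVs.

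**Figure D4:**
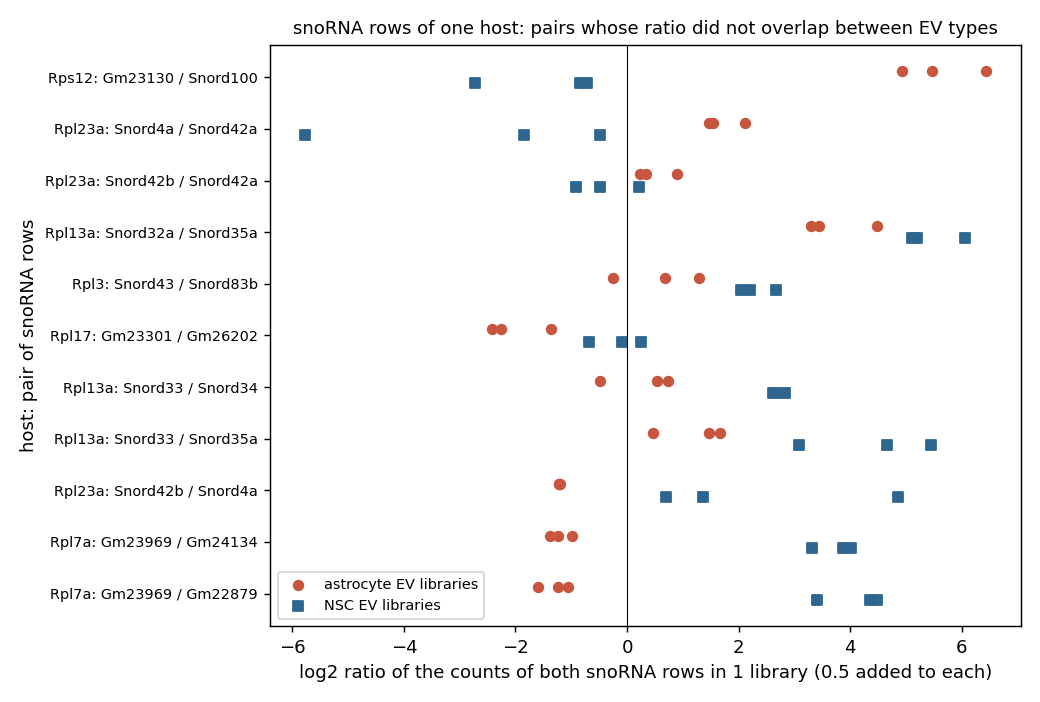
Log2 ratio of the counts of both snoRNA rows of a pair within each library (0.5 added to each count) for 11 of the 15 pairs whose ratio did not overlap between EV types, with astrocyte EV libraries as circles above NSC EV libraries as squares. The widest separation is that of Gm23130 over Snord100 in Rps12.

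Antisense rows gave the background measured the same way. Summed over the 81 spans they held 914, 1553 and 4290 counts in astrocyte EV replicates 1, 2 and 3 and 1311, 8637 and 1397 counts in NSC EV replicates 1, 2 and 3. The high value of NSC EV replicate 2 came from 1 span, antisense of Rpl8, with 7221 counts there and 8 to 46 counts in the other 5 libraries. In astrocyte EV replicate 3 antisense of Rps3 had 1187 counts and antisense of Rpl6 468 counts. The median member had 7, 12 and 22 antisense counts in astrocyte EVs and 9, 10 and 10 in NSC EVs, against 24, 25 and 58 sense counts in astrocyte EVs and 27, 25 and 21 in NSC EVs after subtraction of snoRNA counts. The median sense count exceeded the median antisense count in every library.

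Sense counts exceeded antisense counts in all 6 libraries for 50 of the 81 members (61.7%), and for 37 (45.7%) once snoRNA counts were subtracted, against 22.8% of 20635 RefSeq sense rows. The reverse held for Rpl3l in all 6 libraries. After subtraction it held for Rps12 too, with 24, 36 and 33 counts outside snoRNAs in astrocyte EVs and 5, 20 and 25 in NSC EVs, against 32, 62 and 39 antisense counts in astrocyte EVs and 99, 55 and 72 in NSC EVs. Of the antisense rows 47 passed the filter, and 2 were higher and 1 was lower in astrocyte EVs, 6.38% against 8.40% of all RefSeq antisense rows (4.53% higher and 3.87% lower). Antisense of Rps3 (106, 156 and 1187 counts in astrocyte EVs, 27, 40 and 31 in NSC EVs) was 3.01 higher on the log2 scale with adjusted p = 0.0221 and antisense of Rpl19 (34, 25 and 42 counts in astrocyte EVs, 3, 6 and 7 in NSC EVs) 2.41 higher with adjusted p = 0.0453, and antisense of Rpl21 (10, 7 and 9 counts in astrocyte EVs, 87, 54 and 88 in NSC EVs) had -3.37 with adjusted p = 0.0181. Rps3 lies at the mRNA entry channel of the small subunit, and its sense row had 125, 131 and 206 counts in astrocyte EVs and 162, 70 and 129 counts in NSC EVs (0.05, adjusted p = 0.953), below its antisense row in astrocyte EV replicates 2 and 3. Without astrocyte EV replicate 1, astrocyte EV replicate 2 or NSC EV replicate 3, 0 antisense rows of members were called.

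**Figure D5:**
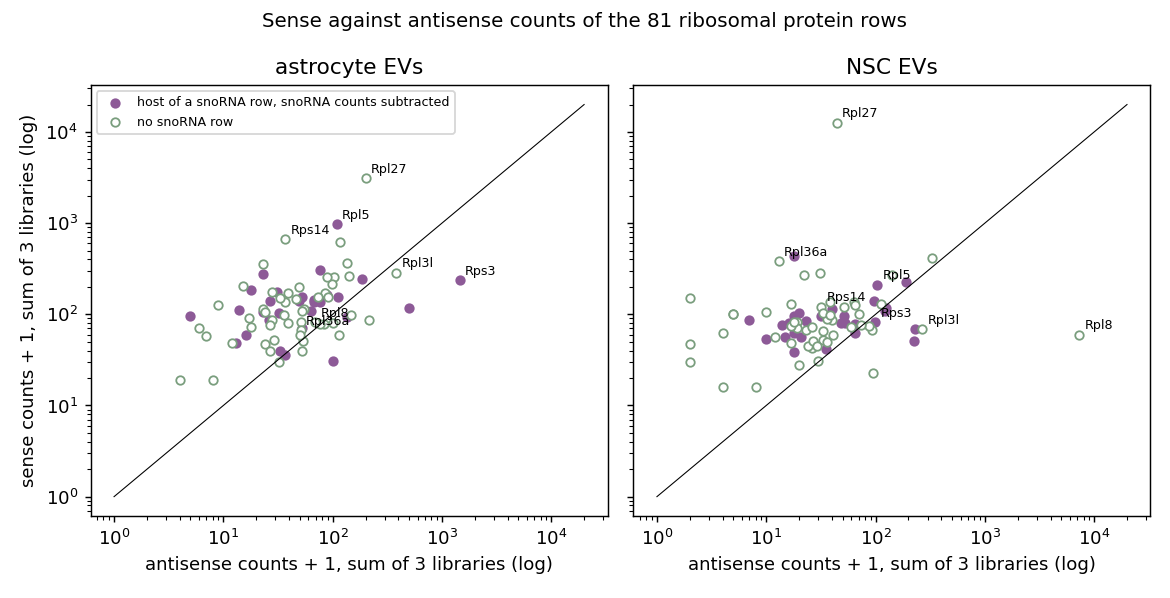
Sense counts against antisense counts of each of the 81 members, summed over 3 libraries with 1 added (log axes), in astrocyte EVs on the left and NSC EVs on the right, with snoRNA counts subtracted from the 29 hosts (filled) and the diagonal marking equal counts. Rpl27 stands far above the diagonal in both, and Rpl8 far below it in NSC EVs.

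Among the 52 members without a snoRNA row, edgeR called 0 of the 50 tested (6 at an unadjusted p under 0.05), against 9.41% of all RefSeq sense rows. DESeq2 called Rpl27 alone, and edgeR without TMM called 0 higher and 2 lower. Rpl27 had 799, 1129 and 1173 counts in astrocyte EV replicates 1, 2 and 3 and 3047, 1423 and 8206 counts in NSC EV replicates 1, 2 and 3, without overlap. This is -2.31 on the log2 scale (SE 0.68, adjusted p = 0.0686 in edgeR, 0.00370 in DESeq2). Without NSC EV replicate 2 the adjusted p was 0.0330, and without NSC EV replicate 3 the log2 fold change was -1.34 with adjusted p = 0.187. Its antisense row held 8 to 149 counts per library.

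Rpl5 and Rpl11, which bind 5S ribosomal RNA and, when ribosome assembly is disturbed, also bind and inhibit the p53 ligase Mdm2, differed in opposite directions without passing the test. Rpl5 had 584, 473 and 366 counts in astrocyte EVs and 157, 127 and 112 counts in NSC EVs (1.82, SE 0.56, adjusted p = 0.0761), and its groups overlapped in CPM though not in counts. Outside its snoRNAs it kept 392, 348 and 237 counts in astrocyte EVs and 79, 70 and 62 in NSC EVs, and this remainder was the largest of any host in astrocyte EVs, with 2.19 (SE 0.58, adjusted p = 0.0501). Its span overlaps that of Fam69a by position, without regard to strand. Whether any of these counts belong to Fam69a was not tested. Rpl11 had 14, 33 and 123 counts in astrocyte EVs and 65, 105 and 98 counts in NSC EVs (-1.37, SE 0.43, adjusted p = 0.0803). Only without astrocyte EV replicate 3, among the libraries left out in turn, did either gene pass with all counts (adjusted p = 0.0175 for Rpl5 and 0.0404 for Rpl11).

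The stalk proteins Rplp0, Rplp1 and Rplp2, which recruit translation factors to the ribosome, did not pass the test. Rplp0 had 71, 62 and 221 counts in astrocyte EVs and 83, 149 and 51 counts in NSC EVs (-0.16, SE 0.43). Rplp1 had 43, 24 and 18 counts in astrocyte EVs and 31, 20 and 86 in NSC EVs, and its antisense row exceeded it in 4 of 6 libraries. Rplp2 had 29, 18 and 69 counts in astrocyte EVs and 32, 14 and 16 in NSC EVs. Rpsa, the small subunit protein also known as the laminin receptor, had 45, 42 and 106 counts in astrocyte EVs and 92, 94 and 85 in NSC EVs (-0.90, SE 0.33, adjusted p = 0.119), and its H/ACA snoRNA Gm26448 had 0, 4 and 20 counts in astrocyte EVs and 19, 34 and 32 in NSC EVs (-2.57, SE 0.76, adjusted p = 0.0689). Rps6, the small subunit protein phosphorylated by the S6 kinases, had 39, 43 and 67 counts in astrocyte EVs and 30, 34 and 17 in NSC EVs (0.59, SE 0.43, adjusted p = 0.405).

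Rpl10l, a testis paralog of Rpl10, had 66, 73 and 67 counts in astrocyte EVs and 25, 57 and 18 in NSC EVs (0.92, SE 0.57, adjusted p = 0.317) with 0 to 6 antisense counts. Its level per kilobase of span was 1.05 CPM in astrocyte EVs and 0.544 CPM in NSC EVs, above that of Rpl10 at 0.272 and 0.306 CPM, and reads shared between these similar genes could not be traced. Rpl3l, a paralog of heart and skeletal muscle, had 13, 35 and 238 counts in astrocyte EVs and 32, 25 and 11 in NSC EVs, and Rpl7l1 had 27, 27 and 208 in astrocyte EVs and 20, 25 and 22 in NSC EVs. Rps27l, a paralog induced by p53, had 9, 17 and 32 counts in astrocyte EVs and 9, 4 and 2 in NSC EVs (1.45, SE 0.62, adjusted p = 0.165), and Rpl39l had 12, 34 and 11 in astrocyte EVs and 15, 22 and 10 in NSC EVs. Rpl22l1 had 3, 7 and 8 counts in astrocyte EVs and 8, 7 and 14 in NSC EVs and was not tested.

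Single libraries stood out in several members. Astrocyte EV replicate 3 had the largest table total, so CPM is given beside its counts. Rps14 had 592 counts there, against 28 and 42 in the other astrocyte EV libraries and 20 to 60 in NSC EVs. In CPM this is 0.447 to 4.19 over astrocyte EV libraries, against 0.362 to 0.953 over NSC EV libraries. Rps15a had 442 counts there, against 70 and 104 in the other astrocyte EV libraries and 61 to 129 in NSC EVs. Its CPM spanned only 1.66 to 3.13 over astrocyte EV libraries, against 1.10 to 2.26 over NSC EV libraries, and these ranges overlapped. Rpl3l and Rpl7l1 were highest in the same library, at 1.69 and 1.47 CPM, against at most 0.560 and 0.398 CPM in NSC EVs. In NSC EV replicate 2, Rpl36a had 356 counts and its paralog Rpl36al 84, against 1 to 47 counts for either gene in astrocyte EVs and 8 to 18 in the other NSC EV libraries. None of these genes passed the test.

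Other genes of the translation machinery were taken from lists, and 9.41% of all RefSeq sense rows were called in the same fit. Of 38 translation factors tested, Eif3b (1.20, adjusted p = 0.0440), Eif3k (1.57, adjusted p = 0.0461) and Eif4h (1.74, adjusted p = 0.0328), which act in initiation, were higher and the initiation factor subunit Eif3d was lower (-1.33, adjusted p = 0.0472), and the share called was near that of all RefSeq rows. None of these 4 holds a snoRNA row, but without TMM 0 of 38 were called, and the list's median log2 fold change was 0.25. Of 33 ribosome assembly factors tested, Rrp9, a protein of the U3 snoRNA particle, was higher (2.84, adjusted p = 0.0156) and the nucleolar GTPase Gnl3 lower (-2.03, adjusted p = 0.0436). Gnl3 is itself a host, with 89.4% of its counts in snoRNA rows, and had 0.35 with adjusted p = 0.627 after subtraction. Of 65 mitochondrial ribosomal proteins tested, which are encoded by separate genes without snoRNA rows here, Mrpl33 (5.21, adjusted p = 0.0156) and Mrps34 (3.14, adjusted p = 0.0422) were higher and Mrps31 lower (-2.93, adjusted p = 0.0276). The shares called in both of these lists were below that of all RefSeq rows. Gnb2l1 (Rack1), a ribosomal protein under another name, had 490, 422 and 683 counts in astrocyte EVs and 564, 308 and 140 counts in NSC EVs (0.43, SE 0.54, adjusted p = 0.640), and 89.1% of its counts lay in its 3 snoRNA rows.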

How the data were processed

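Small RNA from EVs of primary mouse astrocytes (3 libraries) and NSCs (3 libraries) was analyzed from the count table that the authors deposited, whole-number counts per annotated row without normalization. Per the submitters' processing notes, the mm10 build was used with Bowtie, Bowtie2, bedtools, SAMtools, cutadapt, DESeq and FastQC, without versions. No source used here tells how multimapping reads were treated, so copies of similar sequence may share reads. The library kit and sequencer differ between the paper and the series record. The deposited comparison tables hold group means, fold changes and p-values of the authors' own comparison and were not used. All value columns had a library (0 without one).

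All 61161 rows other than miRNA hairpins were fitted in edgeR 4.0.16 (R 4.3.3) with TMM, the default low-count filter by group, which 41308 rows passed, the quasi-likelihood test and Benjamini-Hochberg adjustment over all rows tested, with calls at an adjusted p under 0.05. Log2 fold changes are astrocyte EVs minus NSC EVs, and their SE is the absolute value divided by the square root of the F statistic. CPM is counts per 1000000 non-hairpin counts scaled by TMM. The biological coefficient of variation was 0.449. Replicates differed far beyond sampling noise (smallest chi-square per degree of freedom 99.1). SnoRNA rows are C/D box, H/ACA box, scaRNA and Rfam sno rows within a span on its strand, 1 per locus. Counting intervals are 95% exact binomial and cover counting error only. DESeq2 1.42.0 was an alternative, beside other size factors, no TMM, other filters, RefSeq rows only, rows of identical counts once, a replicate block, subtraction of snoRNA or antisense counts and each library left out. Leaving out each library after the subtraction, and DESeq2 after it, were added after seeing the data. Tables were made with Python 3.11.15, pandas 2.3.3, numpy 2.4.6, scipy 1.17.1 and matplotlib 3.10.9, and the code was tested on simulated data. Sequences and exons are from GENCODE vM21 (mm10).

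The members and lists were chosen with earlier results of these data known. Named members were the 6 highest by CPM in each EV type, those past the test, the 8 hosts of most snoRNA counts, and a list by role (stalk, Rpsa, Rps6, Rpl5, Rpl11, Rps3, Rpl13a, Rpl23a and paralogs). No member was under 3 counts in all libraries. Other members and the single snoRNA rows were named after their values were seen. Some genes that this rule names are not reported here, though they stay in all counts and sums.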

Additional observations from a re-analysis of the deposited data

How the results depend on the processing

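Of 955 values of named rows under the alternatives, 791 kept their direction and their side of the threshold, 69 lost and 51 gained a call in the same direction, and 44 changed sign. None of the 44 sign changes was in a row called in either fit, and they include Rpl21, Rps3a1, Rpl13a, Rpl23a and Rpl3 after subtraction of snoRNA counts. The counts of members called higher and lower, 4 and 1, were 4 and 1 with DESeq2 size factors, a minimum of 10 counts, RefSeq rows only or identical rows once. They were 6 and 5 with DESeq2 and without a filter, 2 and 7 without TMM, 2 and 0 after subtraction of antisense counts, and 0 and 0 after subtraction of snoRNA counts. Over the libraries left out they were 0 to 7 and 0 to 2. After snoRNA subtraction they were 1 and 2 with DESeq2 and 0 to 2 and 0 to 1 over the libraries left out. Antisense rows called, 2 higher and 1 lower, were 1 and 3 without TMM, 2 and 2 with DESeq2 or without a filter, and 0 to 3 and 0 to 1 over the libraries left out. Leaving out hosts took the summed level to 44.0 CPM in astrocyte EVs and 103 CPM in NSC EVs. Of these sums Rpl27 alone held 15.2 CPM in astrocyte EVs and 74.9 CPM in NSC EVs. As a share of RefSeq sense counts the sum came to 0.0993% in astrocyte EVs, against 0.108% in NSC EVs.

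Deviations of libraries with the same replicate number had correlations of -0.046, -0.037 and -0.142, against -0.053 to 0.140 for different numbers. With 3 libraries a group this cannot decide whether the numbers pair the libraries. With the replicate block, 2 members (Rpl17 and Rpl13) were higher and 0 lower, and of the antisense rows 1 was higher and 1 lower. Without TMM the median of all rows was -0.54, with 738 rows higher and 3217 lower, against 2290 and 1750 with TMM. The remainder outside snoRNAs had a median of 21 to 58 counts per member and library, and with 3 libraries a group no permutation p can be under 0.1. The causes of these shifts were not tested.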

Other observations

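Rps20 had the highest count outside snoRNA rows of any host in NSC EV replicates 1 and 3, with 82, 72 and 119 counts in astrocyte EVs and 83, 65 and 290 counts in NSC EVs, and 4 to 9 antisense counts. Its snoRNA row held 7.30% of its counts, the lowest share among the 29 hosts.

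The 2 SNORD73 copies of Rps3a1 were both lower in every astrocyte EV library than in any NSC EV library by CPM, with 56, 12 and 52 counts in astrocyte EVs and 276, 122 and 146 counts in NSC EVs for Rnu73b (log2 fold change -2.35, adjusted p = 0.0716 by edgeR's quasi-likelihood test), and 69, 37 and 207 counts in astrocyte EVs and 375, 197 and 183 counts in NSC EVs for Snord73a (-1.81, adjusted p = 0.0532). Gm23344, a SNORD18 copy of Rpl4, had 624, 457 and 986 counts in astrocyte EVs and 137, 26 and 180 counts in NSC EVs (2.27, adjusted p = 0.0735), while the other 4 snoRNA rows of Rpl4 held 0 to 74 counts per library and did not pass the low-count filter.

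In Rpl3 the ratio of Snord43 to Snord83b was 1.60, 2.46 and 0.840 in astrocyte EVs and 6.40, 4.63 and 4.14 in NSC EVs, so that the ratio did not overlap in a host whose summed count did (exact permutation p = 0.1, the smallest possible, 0.153 after adjustment over 23 pairs).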
